A study of Homo sapiens with 17 samples.

Results

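Exposure of BEAS-2B cells to 10 mM acetaldehyde for 24 h was compared with control medium at 0 mM. BEAS-2B is a virus-immortalised human cell line from bronchial epithelium; the cells were labelled wild type and were grown in BEGM, a bronchial epithelial growth medium, and every control received that medium without acetaldehyde. The comparison held 11 of the 17 libraries of the series: 10 mM libraries 2 to 6 (n = 5) and control libraries 1 to 6 (n = 6). The libraries were chosen by their measured profiles: 10 mM library 1 was left out because its profile over all genes stood apart in these same data. Its log2 expression correlated at r = 0.84 to 0.866 with the other 10 mM libraries, which correlated at r = 0.986 to 0.995 with each other. That choice used measured values of the group compared, so the p-values below do not account for it, and values with library 1 are given where they end a call. The other 5 libraries of the series, at 16 mM for 24 h, shared the fit. Polyadenylated RNA of a single cell line was sequenced, and no label ties a library to a culture of its own, so p-values measure the spread between these libraries, which may be technical.

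Acetaldehyde is the first product of ethanol oxidation and a constituent of tobacco smoke. It reacts with amino groups of proteins and of DNA and can crosslink both, and cells detoxify it mainly by oxidation to acetate, with the mitochondrial enzyme ALDH2 as the best known catalyst. Misfolded proteins free the transcription factor HSF1 to induce chaperones, electrophiles free NRF2 from its inhibitor KEAP1, and DNA damage stabilises p53. The title of the series names the PI3K/AKT and MAPK/ERK signalling pathways, and both were described by list here, beside lists for proteostasis, redox defence, lipid synthesis, DNA damage, the cell cycle and matrix.

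Depth was alike in both groups, at 16618130 to 17181707 expected counts per control library and 16622786 to 17125516 per 10 mM library. Between 12317 and 12519 genes had at least 10 counts in a control library, against 12208 to 12462 at 10 mM. The left-out library 1 held 18809242 expected counts and 11709 such genes. The libraries of every group fell into 2 sets: control 1 to 3 and 10 mM 2 to 4 made up the first set, and control 4 to 6 and 10 mM 5 and 6 the second. Within a set the libraries of a group correlated at r = 0.991 to 0.995, whereas controls of different sets correlated at 0.977 to 0.989 and 10 mM libraries of different sets at 0.986 to 0.987. The labels name no batch, and these sets were defined after seeing the data. Their matching between control and 10 mM is less clear. Deviations from the group mean correlated at r = -0.09 to 0.34 for control and 10 mM libraries of the same set. For different sets they correlated at r = -0.37 to 0.04, so the ranges overlap. Values of 10 mM against control given by set or with the set term rest on that matching. Gene lists are therefore described over all 11 libraries, for the 2 sets fitted apart, and in a summed fit, in which the close libraries of a group were added together and each group had 2 sums. The summed fit was also run with the set as a term, which was chosen after seeing the data; it is called the summed fit with the set term below. Libraries within a set are so alike that p-values from 1 set alone measure little beyond that likeness. The same holds for the test of the difference between the sets, used below. The sets were drawn from these same profiles, so many genes were bound to pass that test, and its p-values are descriptive only. A count given for both sets holds the genes that passed in each set with the same direction.

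Simple epithelial keratins and SFN marked the cells, with a summed level of the epithelial markers of 913 to 1750 FPKM (fragments scaled by gene length and library size) in controls and 1180 to 1450 FPKM at 10 mM. Other defining epithelial markers were absent: KRT19 was listed at 0 in all 11 libraries, and CDH1, EPCAM, KRT5, TP63 and KRT15 did not exceed 0.12 FPKM. Fibroblast markers summed to 34.3 to 52.7 FPKM in controls and 31.3 to 36.0 FPKM at 10 mM. Markers of blood cells summed to 9.96 to 11.9 FPKM in controls and 19.6 to 24.9 FPKM at 10 mM, and the sum came from CD68, CORO1A, CD14 and LAPTM5, while PTPRC stayed at or below 0.01 FPKM and CD3E at or below 0.06 FPKM. Endothelial markers summed to 12.7 to 19.6 FPKM in controls and 14.3 to 26.2 FPKM at 10 mM. Nearly all of that sum was EGFL7, at 12.1 to 18.9 FPKM in controls and 13.8 to 25.6 FPKM at 10 mM. PECAM1, CDH5, VWF, TEK and ERG did not exceed 0.07 FPKM. In RNA from whole cultures, fewer cells of a type and less RNA per cell cannot be told apart.

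At 10 mM, many chaperones, NRF2 targets, sterol synthesis genes and ERK-induced genes were higher than in controls, and many amino acid supply genes, matrix genes and very long genes were lower. Of 12545 genes tested, 2816 (22.4%) were higher and 2854 (22.8%) lower at an adjusted p under 0.05 (edgeR's quasi-likelihood test, Benjamini-Hochberg over all genes tested). Changes of at least 2-fold were fewer, at 220 genes higher (1.75%) and 350 lower (2.79%). All 5 libraries lay above all 6 controls for 1782 of the genes called higher (14.2% of those tested) and below them for 1718 of those called lower (13.7%). With the sets fitted apart, 2442 genes were higher in both (19.6% of 12433) and 2477 lower in both (19.9%), while 673 were called in opposite directions. The first set alone called 3999 of 12613 genes higher and 4041 lower, and the second 3824 of 12528 higher and 3901 lower. These counts over all genes, with those over all 11 libraries and for no overlap, are the background for the list counts below. A test of the difference between the sets, which were drawn from these same data, passed for 4794 genes (38.2% of 12545). The change was more positive in the first set for 2644 of them and in the second for 2150. With close libraries summed, 55 genes were higher (0.408% of 13465) and 191 lower (1.42%), against 1198 and 1460 at an unadjusted p under 0.05. In the summed fit with the set term 713 were higher (5.3%) and 945 lower (7.02%). Most list calls below ended in the summed fit, as did the calls of 59 of 99 genes named below. With the set term 14 of the 99 lost the call. The 99 include genes that did not pass over all 11 libraries and so had no call to lose. With library 1 in the group, 1182 genes were higher (9.41% of 12564) and 1169 lower (9.3%). In the authors' deposited table, which names the 10 mM group without leaving out a library, 2554 genes had a q-value under 0.05, and 2349 of them were called here with the same sign.

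**Figure D1:**
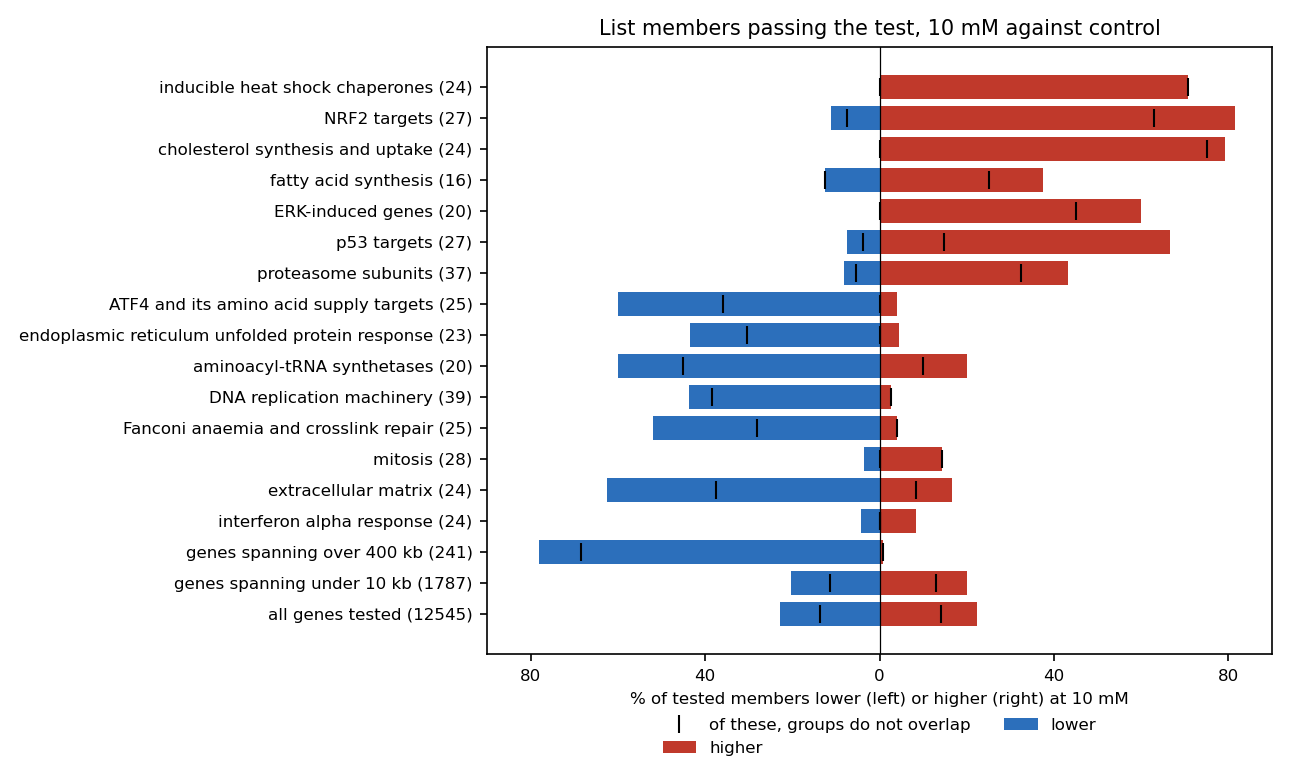
Bars give the percentage of tested members of each gene list (number in parentheses) that passed the test at 10 mM against control, lower to the left and higher to the right, and ticks mark the percentage whose groups also did not overlap. Heat shock, NRF2 and cholesterol lists extend to the right, and the genes spanning over 400 kb extend to the left at 78.0%.

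Most cytosolic chaperones of the HSP70 and HSP90 systems were higher at 10 mM. Of 24 tested members of the heat shock list, 17 were higher (70.8%, against 22.4% of all genes) and 0 lower. The median log2 change was 0.92 against 0.0 over all genes tested, and the groups did not overlap for any of the 17. In both sets 19 members were higher. Calls in the summed fit numbered 2 of 26 higher (16 at an unadjusted p under 0.05), and the summed fit with the set term 18. The regulators HSF1 and HSF2 were among the 7 members that did not pass, with DNAJB6, DNAJB4, HSPD1, HSPA4 and HSPB1.

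Promoter sequences of the chaperone genes are shown because 3 of these genes, HSPA6, HSPA8 and CHORDC1, carry the heat shock element, the sequence that HSF1 binds. Each run holds the 250 bases before the gene's start in RefSeq (build GRCh38.p14), written 5′ to 3′ on the gene's strand, with matches to the element of 3 units (GAANNTTC followed by any 2 bases and GAA) or its reverse complement in capitals.
HSPA6: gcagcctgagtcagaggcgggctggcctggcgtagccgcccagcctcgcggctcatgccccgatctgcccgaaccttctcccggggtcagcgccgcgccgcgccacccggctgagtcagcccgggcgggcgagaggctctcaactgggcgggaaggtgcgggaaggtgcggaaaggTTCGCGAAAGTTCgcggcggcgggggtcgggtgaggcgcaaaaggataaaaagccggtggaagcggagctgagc
HSPA8: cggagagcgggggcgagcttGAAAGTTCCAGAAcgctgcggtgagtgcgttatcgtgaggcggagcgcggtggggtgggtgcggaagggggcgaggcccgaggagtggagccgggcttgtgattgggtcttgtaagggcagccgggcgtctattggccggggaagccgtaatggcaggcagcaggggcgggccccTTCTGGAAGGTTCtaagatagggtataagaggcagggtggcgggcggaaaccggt
CHORDC1: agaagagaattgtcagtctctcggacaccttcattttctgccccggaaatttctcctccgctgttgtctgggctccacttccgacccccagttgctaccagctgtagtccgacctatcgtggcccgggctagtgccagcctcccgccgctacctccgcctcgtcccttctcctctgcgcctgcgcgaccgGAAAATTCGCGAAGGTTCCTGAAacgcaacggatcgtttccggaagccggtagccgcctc
The 3 windows lie at chr1:161524290-161524539 on the plus strand, chr11:123062137-123062386 on the minus strand and chr11:90223050-90223299 on the minus strand. HSPA6 held 1 match, HSPA8 2 and CHORDC1 3 that overlap each other. On both strands, 4 of 22 heat shock promoters found in the table held this motif of 3 units (18.18%), against 0.28% of the 10308 promoters of tested genes; the fourth was DNAJB6, which did not pass the test. The shorter motif GAANNTTC, which is contained in the longer, was in 9 of the 22 (40.91%) against 4.06%. A match describes the letters of the window and not a bound site.

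HSPA1A and HSPA1B encode the stress-inducible HSP70 in near-identical copies, so the split of reads between them is uncertain. HSPA1B ranged from 12.3 to 35.9 FPKM (median 18.4) in controls, and the 10 mM libraries 2 to 6 held 89, 89.6, 85.6, 123 and 124 FPKM, a log2 change of 2.22 ± 0.29 (SE) with an adjusted p of 1.56e-05. HSPA1A ranged from 14.7 to 47.2 FPKM (median 22.3) in controls and was 113, 112, 103, 175 and 168 FPKM at 10 mM, a log2 change of 2.31 ± 0.34 (adjusted p = 4.21e-05). Neither gene overlapped between groups, and libraries 5 and 6 were the highest for both. HSPA6, an HSP70 gene that is nearly silent without stress, stayed low, at 0.06 to 0.32 FPKM (median 0.16) in controls and 0.97, 1.1, 1.18, 1.13 and 1.29 FPKM at 10 mM, yet the groups did not overlap (log2 change 2.57 ± 0.38, adjusted p = 5.19e-05). The left-out library 1 held 251 FPKM of HSPA6 and 1910 FPKM of HSPA1B, far above all other 10 mM libraries. Its FPKM scale was lower for a typical gene: the median over tested genes was 6.67 FPKM there, against 13.7 to 15.3 FPKM in the 11 libraries compared. FPKM values of library 1 are given as deposited, without correction for that.

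The constitutive HSP70 gene HSPA8 was abundant in every library. Its controls spread from 78.4 to 412 FPKM (median 190), and its 10 mM libraries held 590, 574, 565, 998 and 951 FPKM (log2 change 1.72 ± 0.41, adjusted p = 0.00267). HSP90AA1, the inducible cytosolic HSP90, held 150 to 475 FPKM (median 280) in controls and rose to 774, 765, 775, 1329 and 1287 FPKM (log2 change 1.72 ± 0.32, adjusted p = 0.000341). Both genes had a wide control range that followed the sets, and their 10 mM libraries were still above every control. Their partners rose as well. DNAJA1, a J-domain protein that hands clients to HSP70, held 48 to 102 FPKM (median 62.4) in controls and rose to 171, 172, 171, 235 and 234 FPKM (log2 change 1.5 ± 0.23, adjusted p = 5.85e-05). HSPH1, which exchanges nucleotide on HSP70, changed by 1.25 ± 0.22 (adjusted p = 0.000239), and CHORDC1, an HSP90 cochaperone, by 0.78 ± 0.15 (adjusted p = 0.000574). HSPB1, a small heat shock protein that holds unfolded clients, held 137, 140, 140, 178 and 176 FPKM at 10 mM, which overlapped the controls at 80.8 to 151 FPKM (median 112), and did not pass (log2 change 0.42 ± 0.19, adjusted p = 0.0811), although it was called in both sets fitted apart. After summing, HSPA1B and HSPA6 passed, while HSPA1A (adjusted p = 0.0579), DNAJA1 (0.0717), HSPH1 (0.101), HSP90AA1 (0.105), CHORDC1 (0.12) and HSPA8 (0.154) did not.

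**Figure D2:**
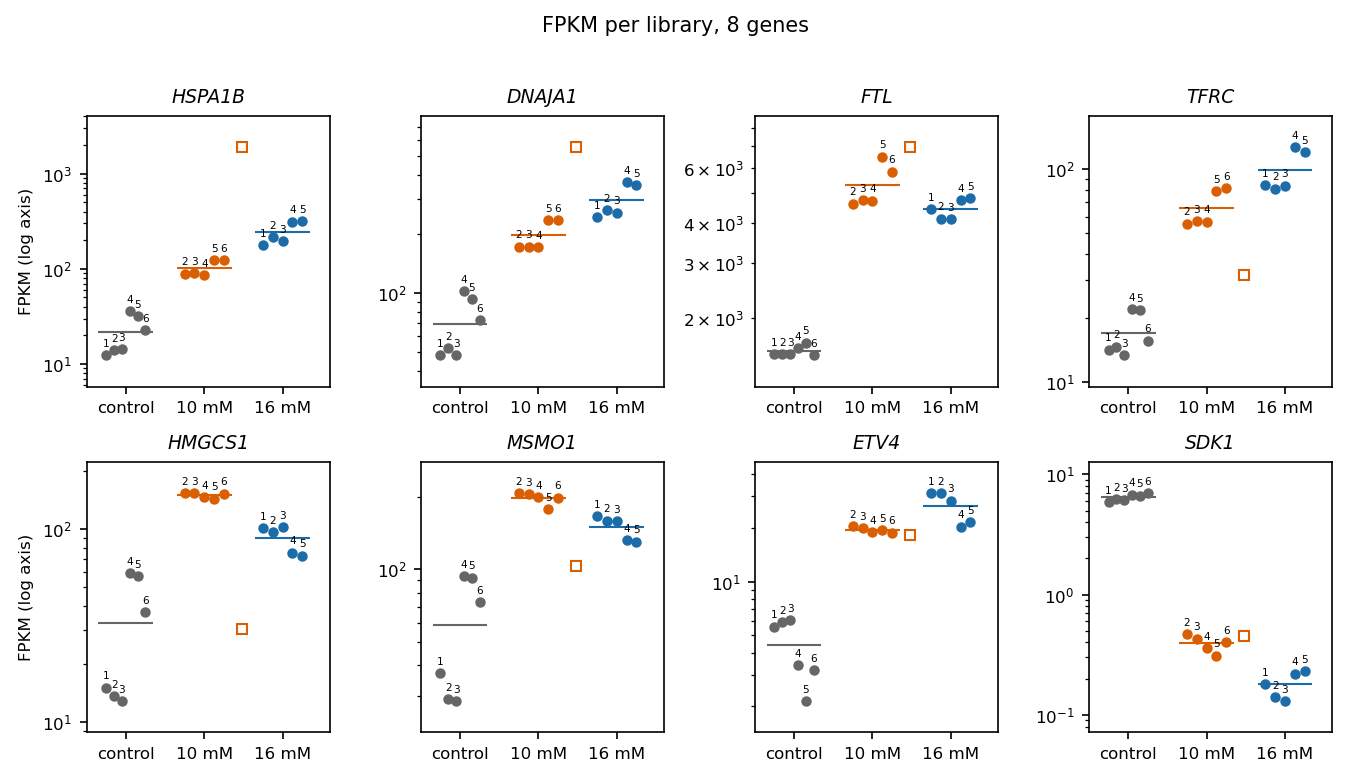
FPKM on a log axis for leading genes, with a filled point for each library numbered as in its group and a line at the group mean; the open square is the 10 mM library 1, which enters no mean. For HSPA1B, DNAJA1, FTL, TFRC, HMGCS1, MSMO1 and ETV4 every filled 10 mM point lies above every control, and for SDK1 every one lies below.

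Redox and iron genes under NRF2 were higher in most cases. Of 27 tested NRF2 targets, 22 were higher (81.5%, against 22.4% of all genes) and 3 lower (11.1%, against 22.8%), with a median log2 change of 0.79. In 17 of the higher members and 2 of the lower the groups did not overlap (all genes tested: 14.2% and 13.7%). Both sets called 20 members higher and 3 lower. Summed close libraries gave 2 of 29 higher and 0 lower (17 and 1 at an unadjusted p under 0.05), and with the set term 17 were higher and 0 lower. The size of the change differed between sets. In the test of that difference it was more positive in the second set for 13 members and in the first for 5. Of 19 NRF2 target promoters in the table, 5 held the antioxidant response element core TGACNNNGC on either strand (26.32%), against 11.92% of tested genes.

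Ferritin, the cytosolic store of iron, rose in both chains. Its light chain gene FTL (chromosome 19, 48965309 to 48966879, GRCh38.p13 as deposited) held 1529 to 1678 FPKM (median 1544) in controls and 4614, 4744, 4717, 6498 and 5822 FPKM at 10 mM (log2 change 1.75 ± 0.11, adjusted p = 7.35e-09). The heavy chain gene FTH1 held 979 to 1151 FPKM (median 1064) in controls and 2249, 2253, 2276, 3134 and 3076 FPKM at 10 mM (log2 change 1.3 ± 0.13, adjusted p = 6.97e-07). Both chains were highest in libraries 5 and 6, and no control came near the lowest 10 mM value. TFRC, the transferrin receptor that imports iron, held 13.3 to 22 FPKM (median 15.1) in controls and rose alongside them to 55.5, 57, 56.7, 78.8 and 81.8 FPKM (log2 change 1.96 ± 0.20, adjusted p = 1.1e-06), by nearly the same amount in the first set (2.02) and the second (2.01). As background, cell iron is known to act on the ferritin and TFRC messages in opposite directions.

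Among the enzymes, NQO1, a quinone reductase, changed by 1.52 ± 0.26 on the log2 scale (adjusted p = 0.000208) and GCLM, the modifier subunit of the first enzyme of glutathione synthesis, by 1.03 ± 0.17 (adjusted p = 0.000105). TXNRD1, which reduces thioredoxin, held 81.7 to 141 FPKM (median 111) in controls and 149, 142, 153, 289 and 298 FPKM at 10 mM, so libraries 2 to 4 lay just above the highest control and libraries 5 and 6 well above it. The rise of HMOX1, the haem-degrading oxygenase, also sat mainly in libraries 5 and 6: controls held 14.7 to 16.6 FPKM (median 14.8), libraries 2 to 4 held 21.1, 20.3 and 21.6 FPKM, and libraries 5 and 6 68.2 and 72.8 FPKM. Its log2 change was 0.53 in the first set and 2.14 in the second, and the sets differed (adjusted p = 4.66e-09). OSGIN1, a growth inhibitor induced by oxidants, changed by 1.56 and 3.38 in the 2 sets (difference, adjusted p = 4.29e-05), and PIR, an iron-binding nuclear protein, rose by 1.19 and 0.93. PRDX1, a peroxidase of the thioredoxin cycle, held 153 to 499 FPKM (median 352) in controls and 596, 541, 601, 870 and 855 FPKM at 10 mM (log2 change 1.04 ± 0.31, adjusted p = 0.0113). In the summed fit FTL, TFRC and PIR passed, while FTH1 (adjusted p = 0.0579), OSGIN1 (0.0522), NQO1 (0.0843), GCLM (0.0827), HMOX1 (0.179), TXNRD1 (0.219) and PRDX1 (0.221) did not.

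Not every redox gene rose. SLC7A11, the cystine importer and a target shared by NRF2 and ATF4, fell, with 23 to 35.2 FPKM (median 32.1) in controls and 15.4, 14.7, 16.4, 20.5 and 24.1 FPKM at 10 mM (log2 change -0.71 ± 0.13, adjusted p = 0.000265). The highest 10 mM value of SLC7A11 reached into the control range, and the adjusted p was 0.154 in the summed fit and 0.0525 with the set term. MSRA, which repairs oxidised methionine, held 0.98 to 2.26 FPKM (median 1.76) in controls and 0.25, 0.25, 0.67, 0.17 and 0.25 FPKM at 10 mM (log2 change -2.43 ± 0.30, adjusted p = 8.11e-06). Library 1 held 1.6 FPKM, inside the control range, and with it in the group the adjusted p was 0.0978.

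Most cholesterol synthesis and uptake genes were higher at 10 mM, by an amount that differed between the sets. Of 24 tested members 19 were higher (79.2%, against 22.4% of all genes) and 0 lower, with a median log2 change of 0.73. In 18 the groups did not overlap (all genes, higher: 14.2%). Both sets called 19 members higher. The median change was 1.16 in the first set and 0.32 in the second. By the test of the difference the change was more positive in the first set for 20 members and in the second for 1. The summed fit (edgeR) called 0 of 24 members (14 higher at an unadjusted p under 0.05), and with the set term 10 were higher.

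Promoters of sterol genes are shown for HMGCS1 and MSMO1, which stand among the 12 largest rises of the comparison, in the same form, with CCAAT or its reverse complement in capitals.
HMGCS1: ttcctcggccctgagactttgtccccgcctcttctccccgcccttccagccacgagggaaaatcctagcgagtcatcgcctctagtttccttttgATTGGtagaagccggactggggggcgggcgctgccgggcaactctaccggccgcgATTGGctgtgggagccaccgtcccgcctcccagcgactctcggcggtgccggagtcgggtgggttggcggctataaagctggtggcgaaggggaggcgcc
MSMO1: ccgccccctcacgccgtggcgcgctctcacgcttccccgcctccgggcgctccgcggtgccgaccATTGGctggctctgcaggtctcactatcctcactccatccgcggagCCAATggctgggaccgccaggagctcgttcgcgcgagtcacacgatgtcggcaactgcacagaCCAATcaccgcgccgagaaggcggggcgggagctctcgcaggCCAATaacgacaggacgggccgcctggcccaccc
They lie at chr5:43313413-43313662 on the minus strand and chr4:165327419-165327668 on the plus strand. CCAAT, the box bound by NF-Y, a common partner of the sterol regulator SREBP, was in 13 of 17 cholesterol promoters in the table (76.47%) against 35.16% of tested genes. The sterol regulatory element TCACNCCAC was in 0 of the 17 windows and in 0.81% of tested genes; this says only that these letters are not in these windows.

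HMGCS1 makes HMG-CoA, an early intermediate of sterol synthesis. Controls held 12.8 to 59.1 FPKM (median 26.1) and 10 mM libraries 154, 154, 146, 144 and 153 FPKM for HMGCS1 (log2 change 2.20 ± 0.37, adjusted p = 0.000168). The 10 mM values were level across the sets, whereas the controls were not: control 1 to 3 held 15.1, 13.7 and 12.8 FPKM and control 4 to 6 59.1, 57.2 and 37.1 FPKM. MSMO1, a sterol demethylating oxidase, changed by 2.72 in the first set and 1.12 in the second, and IDI1, which isomerises isopentenyl diphosphate, by 2.16 and 1.37. INSIG1, which retains SREBP in the endoplasmic reticulum when sterols are ample and is itself an SREBP target, was the 1 member of 7 in the sterol sensing list that passed. It held 11.5 to 90.4 FPKM (median 39.2) in controls and 191, 189, 181, 147 and 147 FPKM at 10 mM, and its adjusted p rose from 0.00387 to 0.174 in the summed fit and 0.0827 with the set term. HMGCS1 (adjusted p = 0.0812), MSMO1 (0.0806) and IDI1 (0.0612) did not pass in the summed fit either. SREBF2, which encodes the sterol regulator itself, did not pass: its log2 change was 0.06 ± 0.10 in all, 0.39 in the first set and -0.29 in the second.

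Fatty acid synthesis genes moved less as a group, with 6 of 16 higher, 2 lower and a median log2 change of 0.18. That is 37.5% higher and 12.5% lower, against 22.4% and 22.8% of all genes tested. Both sets called 5 higher and 2 lower. The summed fit called 0 in either direction (4 higher and 1 lower at an unadjusted p under 0.05), and with the set term 2 were higher and 1 lower. FASN, the fatty acid synthase, held 23.7 to 133 FPKM (median 70.2) in controls and 260, 269, 236, 205 and 193 FPKM at 10 mM (log2 change 1.59 ± 0.40, adjusted p = 0.0037), with a change of 3.12 in the first set and 0.71 in the second, and its adjusted p was 0.179 in the summed fit and 0.0585 with the set term. ACLY, which makes cytosolic acetyl-CoA, rose by 0.86 ± 0.15 (adjusted p = 0.000251, and 0.118 in the summed fit). FADS1, a desaturase, was lower, at 119, 119, 119, 101 and 97 FPKM against 142 to 164 FPKM (median 144) in controls (adjusted p = 0.000204, 0.214 in the summed fit and 0.355 with library 1 in the group).

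**Figure D3:**
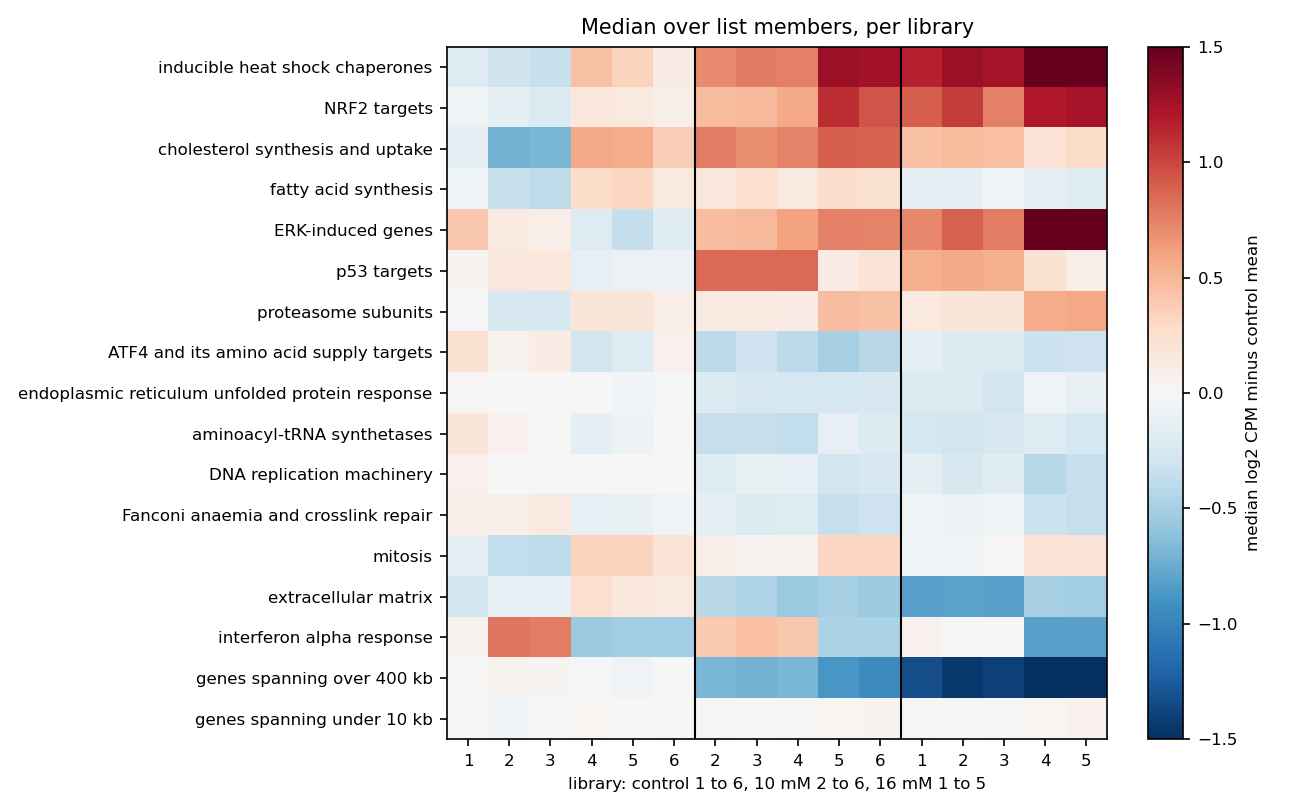
Each cell of the map is the median over the tested members of a list in 1 library, in log2 CPM (counts scaled by library size) minus the control mean (colour), with libraries in columns and black lines between control, 10 mM and 16 mM. Control 2 and 3 are lower than control 4 to 6 for the cholesterol list, 10 mM libraries 2 to 4 are higher than 5 and 6 for the p53 list, and genes spanning over 400 kb are lower in every treated library than in any control.

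Outputs of the ERK pathway were higher while transcripts of the cascade itself changed in both directions. Of 20 tested ERK-induced genes, 12 were higher (60.0%, against 22.4% of all genes) and 0 lower, with a median log2 change of 0.56. In 9 the groups did not overlap (all genes, higher: 14.2%). Both sets called 10 higher, the summed fit 4 (10 at an unadjusted p under 0.05), and the summed fit with the set term 9. In the test of the difference between sets, the change was more positive in the second set for 13 members and in the first for 0. ETV4, an ETS transcription factor, held 2.14 to 6.07 FPKM (median 4.49) in controls and 20.4, 19.8, 18.9, 19.4 and 18.8 FPKM at 10 mM (log2 change 2.19 ± 0.19, adjusted p = 1.86e-07). Its close relative ETV5 changed by 1.67 ± 0.25 (adjusted p = 4.86e-05). SPRY4, an inhibitor induced by the pathway, held 0.73 to 2.89 FPKM (median 1.58) in controls and 5.39, 5.78, 6.08, 4.18 and 4.81 FPKM at 10 mM (log2 change 1.57 ± 0.26, adjusted p = 0.000137). EPHA2, a receptor tyrosine kinase, rose by like amounts in the first set (1.20) and the second (1.22), and CCND1, the G1 cyclin, by 1.10 and 1.24. DUSP5, a nuclear phosphatase of ERK, held 11.9, 10.4, 10.8, 14.1 and 13.4 FPKM at 10 mM against 3.33 to 10.5 FPKM (median 4.24) in controls, where control 1 overlapped the lowest 10 mM value (log2 change 1.24 ± 0.23, adjusted p = 0.000416). After summing, ETV4, EPHA2 and DUSP5 passed, while ETV5 (adjusted p = 0.0526), SPRY4 (0.083) and CCND1 (0.169) did not.

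FOSL1, an AP-1 subunit, had the largest log2 rise among genes with a mean of at least 5 FPKM at 10 mM and no overlap. Controls held 1.64 to 6.1 FPKM (median 2.69), and 10 mM libraries held 12.9, 13.4, 14.1, 20.4 and 20.7 FPKM, so that the groups did not overlap and libraries 5 and 6 were highest (log2 change 2.36 ± 0.30, adjusted p = 9.88e-06). Of 17 AP-1 and immediate-early genes, 6 were higher (35.3%, against 22.4% of all genes) and 0 lower in all. In both sets 5 were higher, in the summed fit 1 and with the set term 5. MAFF, a small MAF protein, rose by 1.36 ± 0.20 (adjusted p = 3.97e-05, and 0.0578 in the summed fit) and IER5, an immediate-early gene, by 1.29 ± 0.11 (adjusted p = 1.22e-07).

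Among 23 cascade components from receptor adaptors to ERK, 5 were higher and 4 lower, 39.1% in all against 45.2% of all genes, with a median log2 change of 0.01. Both sets called 4 higher and 3 lower. Summing left 0 in either direction (2 higher and 2 lower at an unadjusted p under 0.05), and with the set term 2 were lower. MAP2K1, which encodes MEK1, held 33.9 to 38 FPKM (median 35.9) in controls and 46.7, 45.8, 46.3, 47.3 and 46.9 FPKM at 10 mM (log2 change 0.39 ± 0.09, adjusted p = 0.002). MAPK3, which encodes the kinase ERK1, changed by 0.37 ± 0.08 (adjusted p = 0.000757). After summing, neither MAPK3 nor MAP2K1 passed, at adjusted p = 0.229 and 0.243, or 0.113 and 0.0752 with the set term. EGFR, the receptor upstream, fell, with 56.8 to 63.6 FPKM (median 59.95) in controls and 36.9, 36.8, 36.1, 38.5 and 38 FPKM at 10 mM (log2 change -0.68 ± 0.05, adjusted p = 4.08e-08, and 0.0819 in the summed fit). These are transcript levels, and phosphorylation of the kinases was not measured.

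PI3K-AKT components divided evenly, with 8 of 29 higher and 8 lower and a median log2 change of 0.04. These shares, 27.6% in each direction, were near the 22.4% higher and 22.8% lower of all genes tested. Both sets called 6 of 28 higher and 8 lower, the summed fit 0 of 29 higher and 1 lower, and the summed fit with the set term 2 higher and 2 lower. PIK3CA, the p110 alpha catalytic subunit, held 11.2 to 12.7 FPKM (median 11.9) in controls and 9.35, 8.98, 9.86, 8.73 and 9.65 FPKM at 10 mM (log2 change -0.29 ± 0.04, adjusted p = 7.98e-05), and PIK3CD, the p110 delta subunit, was higher by 0.62 ± 0.12 (adjusted p = 0.00045, and 0.436 with library 1 in the group). AKT1 changed by 0.19 ± 0.07 (adjusted p = 0.0316), with groups that overlapped and a call that ended when any 1 of 6 libraries was left out (adjusted p up to 0.072) and when library 1 was kept (0.0851). The insulin receptor substrates moved apart: IRS1 held 8.22, 7.65, 7.89, 6.45 and 7.84 FPKM at 10 mM against 10.5 to 15.8 FPKM (median 13.6) in controls (log2 change -0.81 ± 0.13, adjusted p = 7.45e-05), and IRS2 held 7.38, 7.14, 7.39, 6.31 and 6.8 FPKM against 5.07 to 5.54 FPKM (median 5.15) (log2 change 0.43 ± 0.08, adjusted p = 0.000525, and 0.0508 with library 1). INPP4B, a lipid phosphatase that opposes PI3K signalling, fell by 0.99 ± 0.08 on the log2 scale (adjusted p = 1.41e-07). In the summed fit INPP4B passed, while IRS1 (adjusted p = 0.0777), PIK3CD (0.139), IRS2 (0.209), PIK3CA (0.25) and AKT1 (0.542) did not. With the set term PIK3CD (0.0439) and IRS1 (0.0155) passed as well.

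The p53 targets rose in 10 mM libraries 2 to 4 far more than in libraries 5 and 6. Of 27 tested members 18 were higher (66.7%, against 22.4% of all genes) and 2 lower (7.41%, against 22.8%), with a median log2 change of 0.55. The groups did not overlap for 4 of the 27 among the higher and 1 among the lower. That is near the 14.2% of all genes for the higher, and 13.7% is the share for the lower. The sets fitted apart both called 13 of 26 higher and 2 lower. The median change was 0.81 in the first set and 0.18 in the second. By the test of the difference between sets the change was more positive in the first set for 20 members and in the second for 1. The summed fit (edgeR) called 0 of 27 members (10 higher and 1 lower at an unadjusted p under 0.05), and with the set term 8 were higher. With library 1 in the group 10 were higher and 1 lower.

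CDKN1A, which encodes the cell cycle inhibitor p21, shows the layout. Controls held 56.4 to 86.7 FPKM (median 71), libraries 2 to 4 held 293, 317 and 306 FPKM, and libraries 5 and 6 held 94.6 and 88.7 FPKM (log2 change 1.62 ± 0.29, adjusted p = 0.000297). The change was 1.86 in the first set and 0.69 in the second, and the sets differed (adjusted p = 2.87e-10). MDM2, the ubiquitin ligase that degrades p53, held 13.6 to 21.1 FPKM (median 16.4) in controls, 59.9, 59.8 and 66.4 FPKM in libraries 2 to 4 and 20.7 and 21.1 FPKM in libraries 5 and 6, which reached the control range. BTG2, an antiproliferative gene, changed by 2.22 and 0.40 in the 2 sets, and SESN1, a stress-induced inhibitor of mTORC1 signalling, by 1.41 and 0.68. BBC3, which encodes the proapoptotic protein PUMA, changed by 1.70 in the first set and 0.13 in the second, with an adjusted p of 0.00899 over all 11 libraries, 0.326 in the summed fit, 0.183 with the set term and 0.0579 with library 1. In the summed fit the adjusted p was 0.139 for CDKN1A, 0.163 for MDM2, 0.143 for BTG2 and 0.116 for SESN1. Library 1, on its lower FPKM scale, held 3.16 FPKM of MDM2 and 0.59 FPKM of SESN1, below every control.

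**Figure D4:**
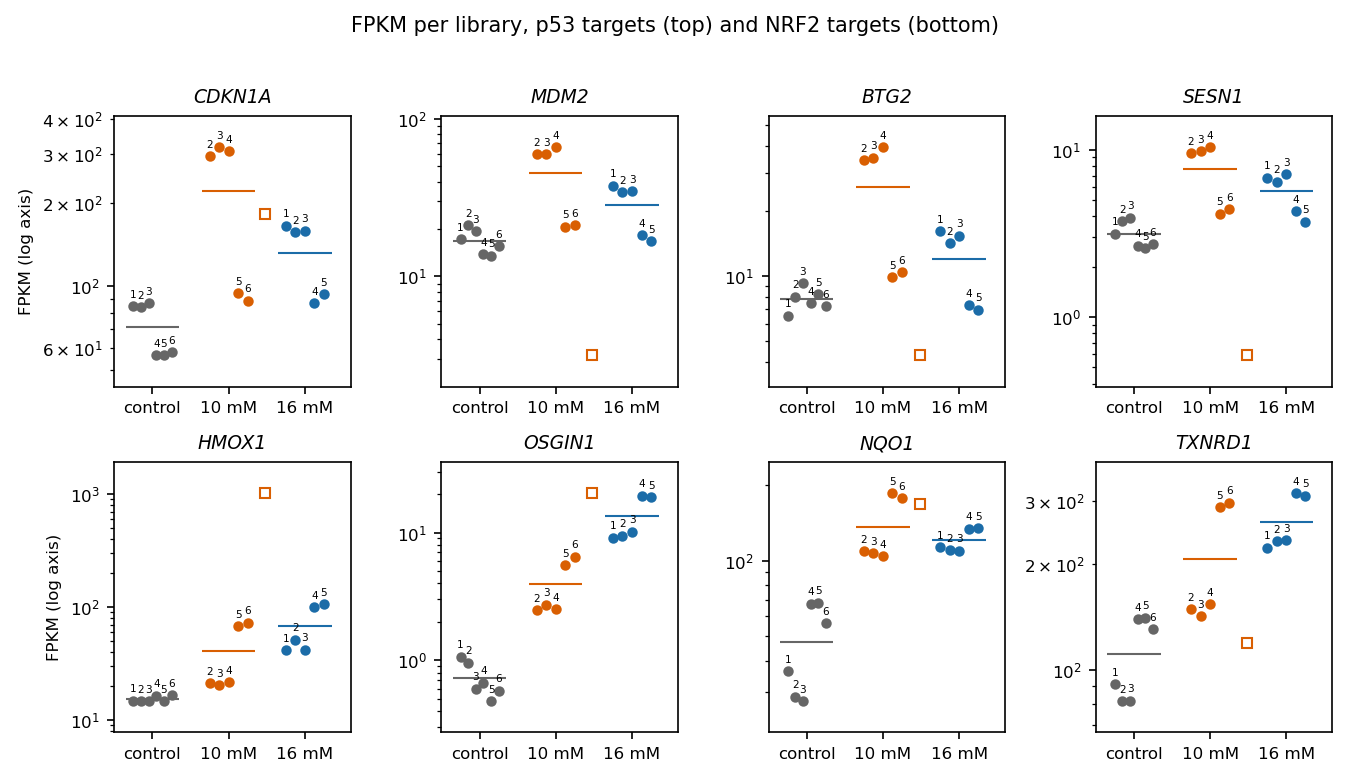
FPKM on a log axis, numbered by library, for genes whose 10 mM values differ between libraries 2 to 4 and libraries 5 and 6; the line is the group mean and the open square is the 10 mM library 1. CDKN1A and MDM2 are high in 10 mM libraries 2 to 4 and near the controls in libraries 5 and 6, and HMOX1 shows the opposite order.

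Many genes that ATF4 induces for amino acid supply were lower. Of 25 tested members 15 were lower (60.0%, against 22.8% of all genes) and 1 higher (4.0%, against 22.4%), with a median log2 change of -0.39. In 9 of the lower members the groups did not overlap (all genes, lower: 13.7%). Both sets called 15 lower and 1 higher. The summed fit called 1 lower (11 at an unadjusted p under 0.05), the summed fit with the set term 9 lower and 1 higher, and the group with library 1 only 4 lower. TRIB3, a pseudokinase induced by ATF4, held 74 to 200 FPKM (median 146) in controls and 53.1, 56.2, 53.9, 48.1 and 45.9 FPKM at 10 mM (log2 change -1.41 ± 0.25, adjusted p = 0.000246). STC2, a secreted glycoprotein, changed by -1.17 ± 0.10 (adjusted p = 2.44e-07) and CHAC1, which degrades glutathione, by -1.14 ± 0.24 (adjusted p = 0.000887). PSAT1, an enzyme of serine synthesis, held 277 to 438 FPKM (median 372) in controls and 244, 240, 232, 204 and 203 FPKM at 10 mM (log2 change -0.66 ± 0.09, adjusted p = 1.52e-05). Library 1 went the other way for several of these, with 362 FPKM of STC2 and 75.5 FPKM of CHAC1, and with it in the group the adjusted p was 0.107 for TRIB3, 0.493 for STC2 and 0.657 for CHAC1. After summing, STC2 passed, while TRIB3 (adjusted p = 0.0827), PSAT1 (0.0913) and CHAC1 (0.143) did not. DDIT3, the stress factor CHOP, did not pass, at 39, 34.7, 37.5, 23.1 and 25.9 FPKM against 27.2 to 51.3 FPKM (median 34.8) in controls (log2 change -0.13 ± 0.14, adjusted p = 0.495), while library 1 held 496 FPKM.

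The unfolded protein response of the endoplasmic reticulum was lower or level, with 10 of 23 members lower, 1 higher and a median log2 change of -0.26. That is 43.5% lower and 4.35% higher, against 22.8% and 22.4% of all genes. Members called in both sets were 10 lower and 1 higher. The first set alone called 14 lower and 1 higher, and the second 14 lower and 4 higher. Over all genes the first set called 4041 of 12613 lower and 3999 higher, and the second 3901 of 12528 lower and 3824 higher. The summed fit called 0 in either direction (5 lower at an unadjusted p under 0.05), with the set term 3 were lower, and with library 1 in the group 3. XBP1, a transcription factor of this response, held 93 to 178 FPKM (median 143) in controls and 79.2, 82.1, 81, 72.5 and 73.7 FPKM at 10 mM (log2 change -0.82 ± 0.14, adjusted p = 0.000201, 0.0942 in the summed fit and 0.854 with library 1, which held 273 FPKM). HSPA5, the chaperone BiP, did not pass, at 173, 162, 160, 178 and 169 FPKM against 175 to 215 FPKM (median 186) in controls (log2 change -0.17 ± 0.08, adjusted p = 0.0947). HSP90B1, the HSP90 of this compartment, changed by -0.13 in the first set and -0.85 in the second, with groups that overlapped and an adjusted p of 0.00859, or 0.139 with library 1, 0.303 in the summed fit and 0.0909 with the set term. Among 20 aminoacyl-tRNA synthetases, which charge tRNAs, 12 were lower (60.0%, against 22.8% of all genes) and 4 higher (20.0%, against 22.4%). Both sets called 9 lower and 4 higher, and library 1 in the group left 3 lower and 2 higher. Summing left 0 of them called in either direction (8 lower and 1 higher at an unadjusted p under 0.05), and with the set term 6 were lower and 3 higher. GARS1, the glycyl enzyme, held 250 to 366 FPKM (median 308) in controls and 191, 184, 180, 175 and 178 FPKM at 10 mM (log2 change -0.75 ± 0.08, adjusted p = 1.88e-06, 0.0819 in the summed fit and 0.303 with library 1).

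Some DNA replication and crosslink repair genes were lower. Of 39 tested replication genes 17 were lower (43.6%, against 22.8% of all genes), 1 was higher (2.56%, against 22.4%) and 21 did not pass. The median log2 change was -0.16, with 0 changes of at least 2-fold. Both sets called 16 lower and 1 higher. Calls in the summed fit numbered 2 lower (9 at an unadjusted p under 0.05), and with the set term 7 were lower and 1 higher. With library 1 in the group only 1 was lower and 1 higher, and the median turned to 0.11. CDC45, part of the replicative helicase, held 60.3 to 96.4 FPKM (median 78.7) in controls and 45.6, 43.6, 42.8, 37.4 and 35.5 FPKM at 10 mM (log2 change -0.93 ± 0.10, adjusted p = 1.88e-06). POLA1, the catalytic subunit of DNA polymerase alpha, changed by -0.89 ± 0.13 (adjusted p = 3.97e-05) and MCM5, a helicase subunit, by -0.77 ± 0.09 (adjusted p = 5.84e-06). FEN1, the flap nuclease, was the 1 member that rose, at 131, 135, 134, 125 and 125 FPKM against 80.3 to 106 FPKM (median 87.8) in controls (log2 change 0.51 ± 0.09, adjusted p = 0.000227). Library 1 held 104 FPKM of CDC45 and 86.6 FPKM of MCM5, above every control, and with it their adjusted p was 0.674 and 0.921. In the summed fit CDC45 passed, while MCM5 (adjusted p = 0.0572), POLA1 (0.0759) and FEN1 (0.172) did not.

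The Fanconi pathway unhooks DNA interstrand crosslinks, a lesion that aldehydes can cause. Of 25 tested members 13 were lower (52.0%, against 22.8% of all genes), 1 was higher (4.0%, against 22.4%) and 11 did not pass, with a median log2 change of -0.2. Both sets called 11 lower and 1 higher, and the group with library 1 had 8 lower. Summed close libraries gave 1 lower, FANCE (6 at an unadjusted p under 0.05), and with the set term 4 were lower and 0 higher. FANCE, a subunit of the core complex, held 21.9 to 30.2 FPKM (median 26.9) in controls and 15.2, 15.6, 16.4, 13.7 and 12.3 FPKM at 10 mM (log2 change -0.83 ± 0.08, adjusted p = 8.42e-07). UBE2T, the ubiquitin-conjugating enzyme of the pathway, was the 1 member that rose, at 148, 144, 156, 149 and 142 FPKM against 101 to 122 FPKM (median 109) in controls (adjusted p = 5.65e-05, 0.144 in the summed fit and 0.0529 with the set term). Of 28 mitosis genes 4 were higher (14.3%, against 22.4% of all genes) over all 11 libraries. A further 1 was lower (3.57%, against 22.8%) and 23 did not pass. The first set alone called 21 higher and 0 lower and the second 7 higher and 7 lower, and in the test of that difference 21 were higher in the first set. Over all genes the first set called 3999 of 12613 higher and 4041 lower, and the second 3824 of 12528 higher and 3901 lower. The difference test passed for 38.2% of all genes. Summing left 0 called (2 higher at an unadjusted p under 0.05), and with the set term 5 were higher. CDK1, the mitotic kinase, held 114 to 180 FPKM (median 141) in controls and 225, 222, 221, 200 and 223 FPKM at 10 mM (log2 change 0.59 ± 0.13, adjusted p = 0.00128, and 0.191 in the summed fit), with a change of 0.94 in the first set and 0.30 in the second.

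Extracellular matrix genes were mostly lower. Of 24 tested members 15 were lower (62.5%, against 22.8% of all genes) and 4 higher (16.7%, against 22.4%), with a median log2 change of -0.45. In 9 of the lower members the groups did not overlap (all genes, lower: 13.7%). Both sets called 12 lower and 4 higher. The summed fit called 2 of 26 lower and 0 higher (10 and 2 at an unadjusted p under 0.05), and with the set term 10 were lower and 2 higher. FN1, the matrix glycoprotein fibronectin, held 372 to 653 FPKM (median 496) in controls and 133, 124, 132, 186 and 186 FPKM at 10 mM (log2 change -1.73 ± 0.25, adjusted p = 3.91e-05, and 0.0843 in the summed fit). The collagen gene COL12A1 held 26.9 to 31.6 FPKM (median 30.3) in controls and 13.8, 13.8, 13.1, 11.6 and 11.1 FPKM at 10 mM (log2 change -1.23 ± 0.07, adjusted p = 2.39e-09). LOX, which crosslinks collagen, changed by -0.99 ± 0.09 (adjusted p = 2.47e-07). Each of the 3 lay below all controls in every 10 mM library. Of the fibroblast markers, which overlap this list in kind, 5 of 7 tested were lower (71.4%, against 22.8% of all genes) and 1 higher (14.3%, against 22.4%). In both sets 4 were lower, in the summed fit 1 and with the set term 2. The higher member was the collagen gene COL1A1, at 2.52 to 4.84 FPKM in controls and 7.32, 7.75, 7.74, 5.57 and 5.32 FPKM at 10 mM. It was higher in both sets but did not pass in the summed fit, with or without the set term. FAP, a surface protease of fibroblasts, held 1.52 to 2.36 FPKM (median 2.12) in controls and 0.47, 0.42, 0.56, 0.46 and 0.57 FPKM at 10 mM (log2 change -2.04 ± 0.17, adjusted p = 1.33e-07), and PDGFRB, a growth factor receptor, changed by -0.30 in the first set and -1.70 in the second (adjusted p = 0.002, 0.149 in the summed fit and 0.0691 with the set term). The part of these marker levels in the matrix result was not tested.

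Cell identity genes moved in mixed directions. CDH2, which encodes N-cadherin, held 18.5 to 20.04 FPKM (median 19.4) in controls and 10.7, 9.79, 10.7, 10.9 and 10.7 FPKM at 10 mM (log2 change -0.87 ± 0.07, adjusted p = 6.29e-08). SNAI1, a repressor that drives epithelial-mesenchymal transition, held 0.34 to 1.11 FPKM (median 0.825) in controls and rose to 2.51, 2.26, 2.99, 2.01 and 2.78 FPKM (log2 change 1.69 ± 0.23, adjusted p = 2.07e-05). In the list for that transition 6 of 13 were lower (46.2%, against 22.8% of all genes) and 2 higher (15.4%, against 22.4%). Both sets called 5 lower and 1 higher, against 19.9% and 19.6% of all genes. Calls in the summed fit numbered 1 lower and 1 higher, CDH2 and SNAI1, and with the set term 2 were lower and 1 higher. Of 5 tested epithelial markers 1 was higher (20.0%, near the 22.4% of all genes) and 0 lower. It was KRT17, a keratin of stressed epithelium, which held 34.5 to 60.9 FPKM (median 49) in controls and 87.7, 88.1, 81.5, 97.7 and 101 FPKM at 10 mM (log2 change 0.91 ± 0.16, adjusted p = 0.00017, and 0.0937 in the summed fit). The simple keratins KRT7 and KRT18 did not pass, with means of 559 FPKM in controls and 429 FPKM at 10 mM for KRT7 and of 377 and 339 FPKM for KRT18. CD68, a lysosomal membrane protein used as a macrophage marker, held 2.65 to 4.36 FPKM (median 3.25) in controls and rose to 7.75, 8.71, 9.8, 9.23 and 8.39 FPKM (adjusted p = 2.12e-07), in libraries where PTPRC was at or near 0.

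Very long genes were lower at 10 mM in most cases. Of 241 tested genes spanning over 400 kb, 188 were lower (78.0%, against 22.8% of all genes) and 2 higher (0.83%, against 22.4%). In 165 of the lower ones the groups did not overlap (all genes, lower: 13.7%). In both sets 175 of 236 were lower and 1 higher, and the group with library 1 had 148 lower and 1 higher. Summed close libraries gave 73 of 274 lower and 0 higher (174 and 1 at an unadjusted p under 0.05), and with the set term 153 were lower. The median log2 change fell with span: it was 0.0 for genes under 10 kb, 0.06 from 10 to 30 kb, 0.03 from 30 to 100 kb, -0.06 from 100 to 200 kb, -0.29 from 200 to 400 kb and -0.79 over 400 kb. Among genes under 10 kb, 357 of 1787 were higher and 365 lower, close to the 22.4% and 22.8% of all genes. Of the 296 genes with a usable span that fell at least 2-fold, 97 spanned over 400 kb. Control expression differed between these strata, with a median of 3.85 FPKM over 400 kb and 17.4 FPKM under 10 kb. Among genes with at least 5 FPKM in controls the median log2 change was -0.02 under 10 kb and -0.64 over 400 kb (110 genes). Expression was not matched between the strata, and its part in the trend was not tested.

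**Figure D5:**
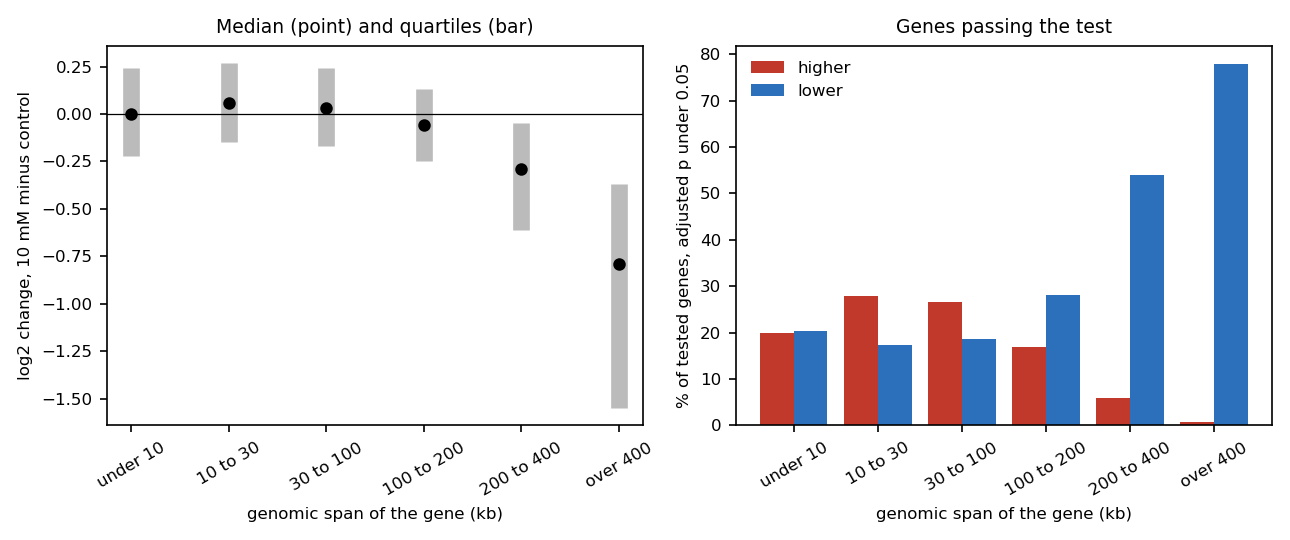
The left panel gives the median (point) and quartiles (bar) of the log2 change at 10 mM against control by genomic span of the gene in kb, and the right panel the percentage of tested genes that passed in each direction. The median moves from 0.0 under 10 kb to -0.79 over 400 kb, and 78.0% of the longest genes passed as lower against 20.4% of the shortest.

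Among genes with a mean of at least 5 FPKM in controls and no overlap, the 3 largest falls were in such genes. NEGR1 (chromosome 1, 71395943 to 72282539, GRCh38.p13 as deposited), a neural adhesion molecule, held 4.84 to 8.03 FPKM (median 6.54) in controls and 0.13, 0.16, 0.13, 0.38 and 0.59 FPKM at 10 mM, 21.6-fold lower (log2 change -4.43 ± 0.29, adjusted p = 1.14e-08). PARD3B (chromosome 2, 204544513 to 205620162), a cell polarity protein, held 5.26 to 9.25 FPKM (median 6.38) in controls and 0.51, 0.46, 0.37, 0.18 and 0.15 FPKM at 10 mM (log2 change -4.28 ± 0.24, adjusted p = 1.29e-09). SDK1 (chromosome 7, 3301186 to 4269000), an adhesion molecule of the immunoglobulin family, held 5.91 to 7.02 FPKM (median 6.43) in controls and 0.47, 0.43, 0.36, 0.31 and 0.4 FPKM at 10 mM (log2 change -4.06 ± 0.15, adjusted p = 3.93e-11). All 3 were at or below 0.59 FPKM in 10 mM libraries 2 to 6. Library 1, on its lower FPKM scale, held 0.4 FPKM of PARD3B and 0.45 FPKM of SDK1, within the range of the others, but 3.86 FPKM of NEGR1. Highly expressed long genes fell too. EDIL3, a secreted integrin ligand, held 91.4 to 126 FPKM (median 108) in controls and 33.7, 31.6, 31.2, 22.3 and 23.6 FPKM at 10 mM (log2 change -1.92 ± 0.12, adjusted p = 9.67e-09). EXOC4, a subunit of the exocyst, held 18.2 to 21.2 FPKM (median 18.4) in controls and 7.01, 6.24, 6.8, 5.77 and 5.67 FPKM at 10 mM (log2 change -1.73 ± 0.09, adjusted p = 1.04e-09). DPYD, which degrades pyrimidines, changed by -2.17 ± 0.25 (adjusted p = 3.79e-06). IMMP2L, a mitochondrial peptidase subunit, changed by -2.12 ± 0.18 (adjusted p = 1.33e-07); library 1 held 5.21 FPKM, and with it the adjusted p was 0.139.

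Length did not decide the outcome for single genes. Of the long genes at 5 FPKM or more in controls, some did not pass, among them, chosen after their values were seen, PDE4D, a cyclic AMP phosphodiesterase (12.1 ± 0.7 FPKM in controls, 12 ± 1.27 at 10 mM), and RERE, a nuclear receptor corepressor (13.5 ± 0.708 and 14.4 ± 0.891 FPKM). The 2 long genes that were higher were RPTOR, the mTORC1 scaffold (log2 change 0.27 ± 0.07, adjusted p = 0.00399), and ZC3H12B (log2 change 1.08 ± 0.31, adjusted p = 0.00993). ZC3H12B was near the floor, with means of 0.055 FPKM in controls and 0.12 FPKM at 10 mM. Neither RPTOR nor ZC3H12B passed in the summed fit (adjusted p = 0.298 and 0.234).

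Several of the 12 largest rises and 12 largest falls at 5 FPKM or more belong to none of the groups above. PHLDA2, an imprinted growth-restraining gene, held 6.09 to 7.92 FPKM (median 6.86) in controls and 24.5, 23.4, 23.8, 29.96 and 31.4 FPKM at 10 mM (log2 change 1.96 ± 0.18, adjusted p = 3.14e-07). NGFR, the low-affinity neurotrophin receptor, held 0.54 to 2.57 FPKM (median 1.17) in controls and rose to 6.22, 5.29, 5.92, 4.06 and 3.88 FPKM (log2 change 1.83 ± 0.31, adjusted p = 0.000158). TNNT2, cardiac troponin T, held 7.71 to 43.5 FPKM (median 24.6) in controls and fell to 2.98, 3.35, 2.35, 3.11 and 2.85 FPKM (log2 change -3.14 ± 0.42, adjusted p = 1.91e-05). Its controls of the first set held 7.71, 14.6 and 15 FPKM and those of the second 34.1, 43.5 and 39 FPKM, all above the 10 mM libraries. Complement C4B, which shares reads with its near-identical copy C4A and is uncertain for that reason, changed by -2.32 ± 0.47 (adjusted p = 0.000768). INHBE, an activin subunit, changed by -2.21 ± 0.57 (adjusted p = 0.00442), and the membrane mucin MUC1 by -2.15 ± 0.20 (adjusted p = 4.76e-07). ITGBL1, an integrin beta-like secreted protein, held 23.3 to 46.3 FPKM (median 36.6) in controls and 7.2, 7.04, 6.47, 9.92 and 8.42 FPKM at 10 mM (log2 change -2.15 ± 0.25, adjusted p = 3.75e-06). RPL22L1, a paralog of a ribosomal protein, held 8.03, 8.21, 8.08, 12.7 and 12.8 FPKM against 29.5 to 54.1 FPKM (median 41.4) in controls (log2 change -2.04 ± 0.18, adjusted p = 3.12e-07, and 0.234 with library 1, which held 45.6 FPKM). After summing, NGFR (adjusted p = 0.0866), C4B (0.106) and INHBE (0.228) did not pass.

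Enzymes that act on acetaldehyde or related aldehydes did not move as a group. In the list for alcohol and aldehyde enzymes 3 of 17 tested genes were higher (17.6%) and 5 lower (29.4%). Over all genes tested the shares were 22.4% and 22.8%. Both sets called 5 higher and 4 lower. Summing left 0 in either direction (1 higher and 4 lower at an unadjusted p under 0.05), and with the set term 1 was higher and 3 lower. ALDH2 was low and did not pass, at 4.95, 4.71, 4.8, 4.45 and 4.56 FPKM against 4.02 to 6.4 FPKM (median 4.79) in controls (log2 change -0.09 ± 0.09, adjusted p = 0.448). ALDH1A3, a retinaldehyde dehydrogenase, held 24.4 to 33.2 FPKM (median 28.3) in controls and 38.1, 38.9, 39.3, 59.6 and 59.7 FPKM at 10 mM (log2 change 0.72 ± 0.15, adjusted p = 0.00114, and 0.148 in the summed fit). ADH5, which clears formaldehyde as its glutathione adduct, changed by 0.26 ± 0.07 (adjusted p = 0.00738, 0.364 in the summed fit, 0.112 with the set term and 0.0653 with library 1). ALDH3B1 was lower by a log2 change of -0.64 ± 0.10 (adjusted p = 0.000106, and 0.108 in the summed fit). ALDH3A1, a dehydrogenase of airway and cornea, held 0.96, 1.04, 0.53, 0.8 and 1.32 FPKM against 0.73 to 2.03 FPKM (median 1.62) in controls, and its adjusted p of 0.0267 was lost when any 1 of 5 libraries was left out (up to 0.0736) and with library 1 kept (0.082), as in the summed fit (0.373).

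The direct test of 16 mM against 10 mM shows where the lower dose differed from the higher. Of the 12545 genes, 2916 were higher at 16 mM (23.2%) and 2621 lower (20.9%). The summed fit (edgeR) called 0 genes in either direction between the doses, and so 0 members of every list, against 1185 higher and 1421 lower at an unadjusted p under 0.05. With the set term 253 were higher (1.88% of 13465) and 469 lower (3.48%). The counts that follow are over all libraries and ended in the summed fit. Heat shock members were higher again at 16 mM, at 14 of 24 and 0 lower (7 at an unadjusted p under 0.05 in the summed fit), and HSPA6 changed by a further 3.33 ± 0.28 (adjusted p = 1.07e-06). Long genes fell further, with 144 of 241 lower at 16 mM than at 10 mM and 6 higher (123 and 2 in the summed fit, unadjusted). ERK-induced genes were higher in 10 of 20 and lower in 0 (8 and 0, unadjusted). Cholesterol genes went the other way, with 9 of 24 lower at 16 mM and 0 higher (3 lower, unadjusted), and all 7 sterol sensing genes were lower (3, unadjusted). FTL did not differ past the threshold between the doses (log2 change -0.24 ± 0.11, adjusted p = 0.0956), nor did FTH1 (log2 change 0.00 ± 0.13, adjusted p = 0.991).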

How the data were processed

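Libraries were 16 of 17 from the series: 6 controls, 5 at 10 mM and 5 at 16 mM. The authors deposited 1 table of 16884 genes with expected counts, FPKM, TPM and their own log2 fold changes and q-values, per the file headers. HISAT, Bowtie2 2.3.4.3, RSEM 1.3.1, DESeq2 1.4.5 and GRCh38.p13 are named in the submitters' processing notes. Of the expected counts, 13.1% were not whole and were rounded here. No source used here says whether reads were counted by strand. FPKM values were taken as deposited and used for levels; TPM was not used, and the deposited log2 changes and q-values served only for the authors' count.

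Counts were fitted with edgeR 4.0.16 in R 4.3.3 (TMM, filterByExpr, glmQLFit and glmQLFTest, two-sided) in 1 fit of 3 groups with 13 residual degrees of freedom, Benjamini-Hochberg over 12545 genes, called at adjusted p under 0.05. Each SE is the log2 change divided by the root of edgeR's F. The 10 mM library 1 was left out of this fit. Tested genes held at least 99.95% of each library's counts. No overlap means that the FPKM of all 5 libraries at 10 mM lay above, or all below, the 6 controls. Genes were named as the 12 largest rises and 12 largest falls at 5 FPKM or more with no overlap, and from 50 lists the best known members and those with the largest changes. The members and lists were chosen with earlier results of these data known. Alternatives were DESeq2 1.42.0, limma 3.58.1 on log2(FPKM + 1) and log2(FPKM + 0.1), no filter on low counts, a replicate block, subsets of libraries, and, chosen after seeing the data, the fits by set and with close libraries summed and the set as a term. Span is the deposited gene length on the chromosome, used for 84.8% of tested genes; 736 tested genes were listed on scaffolds and their coordinates were not used. The fit was tested on simulated data. Promoters are from RefSeq. Some list members are counted but not reported here by name.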

Additional observations from a re-analysis of the deposited data

Results flagged for a closer look

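Among 99 genes named here, Dixon's test at the 95% level set the lowest or highest library apart in 7 of 198 groups. These were 3 of control and 4 of 10 mM libraries. The chance rate of about 1 in 20 holds for a group of like values. It is no yardstick here, because the libraries of each group form 2 sets and the gap between them widens the range. At 10 mM, library 4 was highest for MSRA at 0.67 FPKM against 0.17 to 0.25 in the others, and lowest for PFKFB4 at 8.99 FPKM against 9.37 to 9.5. Library 3 at 10 mM was lowest for CDH2 at 9.79 FPKM against 10.7 to 10.9, and library 5 was lowest for CDK1 at 200 FPKM against 221 to 225. Control library 2 was highest for IRS2 at 5.54 FPKM against 5.07 to 5.21 and for EXOC4 at 21.2 FPKM against 18.2 to 19.3. Control library 1 was highest for DUSP5 at 10.5 FPKM against 3.33 to 5.19, the value that overlapped the 10 mM group.

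The 10 mM library 1, which enters no comparison above, exceeded every other library of control and 10 mM by at least 3 on the log2 scale for 7 of the 99 genes. It held 251 FPKM of HSPA6, 1910 FPKM of HSPA1B and 2580 FPKM of HSPA1A, all inducible HSP70 genes. HMOX1 stood there at 1030 FPKM, the stress factor DDIT3 at 496 FPKM, SNAI1 at 18.8 FPKM and the AP-1 subunit FOSL1 at 122 FPKM.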

How the results depend on the processing

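With close libraries summed, 55 genes were higher and 191 lower at 10 mM than in controls, and 37 and 139 of these changed at least 2-fold. With the set as a term as well, 713 were higher and 945 lower, and with library 1 in the group 1182 and 1169. Of the 246 summed calls 245, and of the 2351 with library 1 2335, had the sign of the call over 11 libraries. Genes at least 2-fold higher numbered 354 in the first set alone, 138 by limma on log2(FPKM + 0.1) and 71 on log2(FPKM + 1). Genes at least 2-fold lower numbered 583 in the second set alone, 620 with 10 mM libraries 5 and 6 only, and 201 and 107 by the limma fits. For 16 mM against 10 mM, edgeR called 0 genes in either direction with close libraries summed (1185 higher and 1421 lower at an unadjusted p under 0.05), 253 higher and 469 lower with the set as a term as well, 840 and 937 with library 1, and 4028 lower in the second set alone. Leaving out each replicate in turn gave 2531 to 2779 genes higher and 2549 to 2869 lower, 207 to 233 and 320 to 387 at 2-fold, and 2393 to 2989 higher and 2144 to 2739 lower for 16 mM against 10 mM.

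For single genes, the log2 change of SREBF2 turned to -0.07 with 10 mM libraries 5 and 6 only, -0.15 with control 4 to 6 only, -0.29 in the second set and -0.05 with library 1. With library 1, STC2 turned to 0.65, XBP1 to 0.13, MCM5 to 0.07 and DDIT3 to 2.33. DDIT3 also turned to 0.01 with 10 mM libraries 2 to 4 only and 0.12 with control 4 to 6 only, and ALDH2 to 0.1 with control 4 to 6 only and 0.09 in the second set. The cause was not tested. With close libraries summed, 59 of the 99 genes lost the call, and with the set as a term as well 14 did. With library 1 in the group 15 lost the call and kept the sign, and 5 changed sign. Of those 5, STC2, XBP1 and MCM5 lost the call too, and SREBF2 and DDIT3 had none to lose. The DESeq2 Wald test and DESeq2 size factors left each of the 99 as it was, called or not called. The replicate numbers did not pair the libraries: deviations of same-numbered control and 10 mM libraries correlated at 0.31, 0.29, -0.26, 0.27 and 0.21 for numbers 2 to 6, and 2 of 5 numbers correlated best with their own. A fit with the replicate block called 2829 genes higher and 2824 lower and changed the call of 2 of the 99 genes. Depth limits genes near 1 FPKM, and sets of near-alike libraries limit the replication to fewer samples than the labels list.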

Other observations

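Proteasome and spliceosome genes were called higher more often than lower over all 11 libraries. Of 37 proteasome subunits 16 were higher (43.2%, against 22.4% of all genes) and 3 lower (8.11%, against 22.8%), and 23 higher and 2 lower in both sets. With close libraries summed edgeR called 0 of them (7 higher and 1 lower at an unadjusted p under 0.05), and with the set as a term as well 12 were higher and 1 lower. Of 21 core spliceosome genes 11 were higher (52.4%) and 2 lower (9.52%), against the same shares of all genes. In both sets 15 were higher and 2 lower. With close libraries summed 1 was higher, and with the set as a term as well 3 were higher and 1 lower. SNRPA1, a U2 particle protein, held 66 to 74 FPKM (median 70.1) in controls and 117, 121, 123, 157 and 159 FPKM at 10 mM (log2 change 0.95 ± 0.09, adjusted p = 2.76e-07). Of 32 glycolysis and hypoxia genes 11 were higher (34.4%, against 22.4% of all genes) and 1 lower (3.12%, against 22.8%). In both sets 16 were higher and 2 lower. With close libraries summed 1 was higher, and with the set as a term as well 8 were. PFKFB4, which makes an activator of phosphofructokinase, held 3.35 to 4.99 FPKM (median 4.33) in controls and 9.5, 9.39, 8.99, 9.37 and 9.39 FPKM at 10 mM (log2 change 1.12 ± 0.11, adjusted p = 7.56e-07).

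Calls differed between the sets for ribosome genes. Over all genes the first set called 3999 of 12613 higher and 4041 lower, and the second 3824 of 12528 higher and 3901 lower. The test of the difference between the sets passed for 38.2% of all genes. Of 29 ribosome biogenesis genes 7 were higher and 11 lower in the first set, against 26 higher and 1 lower in the second, and all 26 that passed the test of the difference were higher in the second. Of 81 cytosolic ribosomal protein genes 4 were higher and 43 lower in the first set, against 29 higher and 13 lower in the second, and 39 passed the test of the difference, all higher in the second. With close libraries summed 0 of the 29 biogenesis genes were called (7 higher at an unadjusted p under 0.05, edgeR) and 1 of the 81 ribosomal protein genes, which was lower. Of 24 interferon alpha response genes 2 were higher (8.33%), 1 was lower (4.17%) and 21 did not pass over all 11 libraries. The shares of all genes were 22.4% higher and 22.8% lower. In the test of the difference between the sets 2 were higher in the first and 5 in the second, where 38.2% of all genes passed. Of 187 zinc finger genes on chromosome 19, 29 were higher (15.5%) and 25 lower (13.4%) at 10 mM than in controls. The shares of all genes were 22.4% and 22.8%. At 16 mM, 115 of the zinc finger genes were higher and 7 lower than at 10 mM, against 23.2% and 20.9% of all genes tested. With close libraries summed 0 of these were called in either comparison by edgeR (4 higher and 8 lower, and 58 higher and 3 lower, at an unadjusted p under 0.05).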
